A study of Mus musculus with 11 samples.

Results

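The 32 genes described here build, carry, edit or bind the sugar coat of the cell surface. They were measured in sorted liver endothelial cells (ECs) of conventionally raised (CONV-R) and germ-free (GF) mice. They were chosen by gene symbol as core proteins and enzymes of heparan sulfate and as hyaluronan and sialomucin genes of the glycocalyx, and all 32 were found among the 29307 genes of the count table. RNA-sequencing libraries were available from 6 CONV-R mice, which carried a specific pathogen-free microbiota, and from 5 GF mice, which were kept in isolators without microbes. All 11 mice were male C57BL/6J animals aged 10 to 12 weeks, of the same colonies and on the same diet, with no gene modification or drug, and each gave 1 library. The ECs were enriched with magnetic beads for CD146 and then sorted for CD31, CD105 and CD146, and far fewer cells and less RNA were obtained from GF livers before the RNA was amplified. In such bulk samples, fewer cells of a type and less RNA per cell cannot be told apart.

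The endothelial glycocalyx is a layer of proteoglycans, hyaluronan and sialylated glycoproteins that lines the vessel wall. Heparan sulfate is a long sugar chain that is started on a core protein by a linkage tetrasaccharide, elongated by the exostosins in the Golgi, and then sulfated in patches that bind growth factors, chemokines, lipoproteins and antithrombin. At the cell surface the chains can be edited by sulfatases and cut by heparanase. In the liver, heparan sulfate takes part in lipoprotein clearance, and the sinusoidal ECs are known for taking up hyaluronan from the blood.

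The libraries held 7242717 to 16164588 counts. Expression values are CPM, counts per 1000000 of the TMM-adjusted total of each library. The cells carried the RNA of liver sinusoidal ECs in both groups. The summed level of 15 markers was 43091 to 52678 CPM in CONV-R mice and 40596 to 58608 CPM in GF mice. No marker was at 0 in any library, and 0 of 15 had an adjusted p under 0.05 with edgeR, DESeq2 or limma voom. At an unadjusted p under 0.05 in edgeR, 6 were higher and 0 lower in GF mice. RNA of Kupffer cells, the resident macrophages of the liver, was higher in GF libraries: 7 of 10 markers rose by edgeR's quasi-likelihood test, and their summed level was 86.0 to 222 CPM in CONV-R mice and 197 to 931 CPM in GF mice, with only *C1qa* at 0 in any library. DESeq2 called 7 of the 10 and limma voom 6, and with CONV-R replicate 3 and GF replicates 2 and 6 left out together edgeR called 0, with 5 higher at an unadjusted p under 0.05. Of 6 listed cholangiocyte markers, *Cldn4* was not analysed here. The summed level of the other 5 was 0.137 to 8.96 CPM in CONV-R mice and 13.6 to 36.8 CPM in GF mice. Each of the 5 was at 0 in at least 1 library, and 1 of the 2 that could be tested rose, *Spp1*. *Spp1* alone was at 0 to 8.47 CPM in CONV-R mice and 11.98 to 14.65 CPM in GF mice. The other 4 markers summed to 0.137 to 2.58 CPM in CONV-R mice, to 13.8, 5.70 and 22.1 CPM in GF replicates 1, 2 and 6, and to 0.286 and 0.793 CPM in GF replicates 4 and 5, within the CONV-R range. The marker sums of hepatocytes, stellate cells, lymphocytes, large vessel ECs and neutrophils overlapped between the groups. With edgeR, 0 of their 9, 3, 5, 7 and 1 tested markers passed, with 1, 1, 2, 3 and 0 at an unadjusted p under 0.05, while DESeq2 and limma voom each called 1 stellate cell and 1 lymphocyte marker lower in GF mice and DESeq2 called 1 large vessel marker higher. Of 10 dissociation response genes, *Jun*, *Hspa1a*, *Hspa1b* and *Ier2* were not analysed here, 4 of the other 6 could be tested and 1 rose, *Dusp1*, by a Log2FC of 0.92 (adjusted p = 0.00019, edgeR). A total of 3 libraries stood apart. GF replicate 6 had the highest Kupffer cell sum, GF replicate 2 had counts for 22674 genes against 15456 to 18495 in the others, and CONV-R replicate 3 lay at -48.15 on the second principal component, where the others lay between -30.18 and 26.15.

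The group comparison addressed which of these genes differ in expression when a mouse lives without a microbiota. With edgeR's quasi-likelihood test and Benjamini-Hochberg adjustment over 12905 genes, 26 of the 32 had enough counts for the test and 5 of these 26 (19.2%) passed an adjusted p of 0.05. All 5 were higher in GF mice: the core protein *Gpc4*, the sulfotransferase *Ndst2*, the sulfatase *Sulf2*, the hyaluronidase *Hyal2* and the hyaluronan receptor *Cd44*. Over all tested genes, 7.48% passed, 4.8% higher and 2.67% lower in GF mice. None of the 26 was called lower with edgeR, DESeq2 or limma voom (0 in each). At an unadjusted p under 0.05, 12 were higher and 0 lower with edgeR and with DESeq2, and 11 were higher and 1 lower, *Extl2*, with limma voom. The Log2FC, which is given throughout as GF relative to CONV-R, was above 0 for 21 of the 26 (80.8%) and for 49.1% of all tested genes, and its median was 0.29 for the 26 and -0.01 for all. For the 15 sinusoidal EC markers the Log2FC was above 0 for 10 (66.7%) and below 0 for 5, with a median of 0.26. For the 7 tested large vessel EC markers it was above 0 for 5 and below 0 for 2, with a median of 0.52. Whether the 26 differ from these or other genes as a group was not tested. The count was 3 when any of CONV-R replicates 4, 5 and 6 or of GF replicates 1, 4 and 6 was left out, and 8 when CONV-R replicate 1 was. With the 3 libraries that stood apart left out together, an alternative chosen after seeing the data, 1 of the 26 passed, *Ndst2*. The Log2FC was then above 0 for 20 of the 26, with a median of 0.18.

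**Figure D1:**
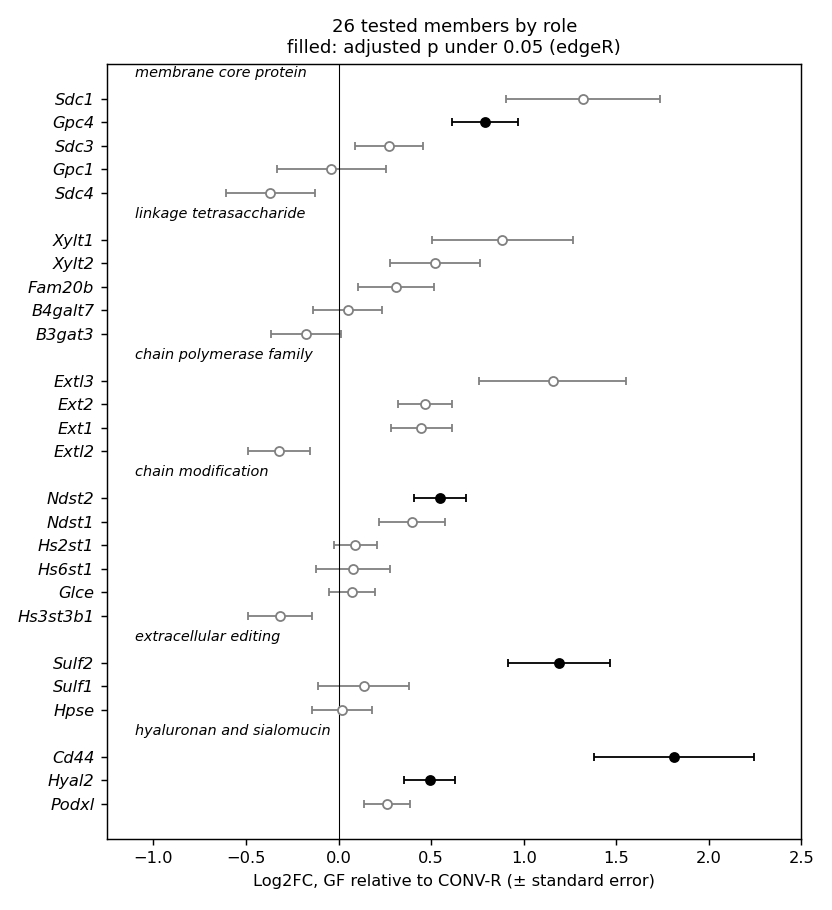
Log2FC of the 26 tested genes with its standard error (x axis, GF relative to CONV-R, 5 and 6 mice), ordered by role. Filled points mark the 5 genes with an adjusted p under 0.05 in edgeR, which all lie to the right of 0, and 21 of the 26 points lie above 0.

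The promoters of the 5 genes that rose are shown because these are the members whose change passed the test. Sequences are from RefSeq on GRCm38.p6, which held a promoter for 22 of the 32 genes, and run 5′ to 3′ on the strand of the gene from 250 bases before to 50 bases after the start. Capitals mark matches on either strand to the 3 motifs that were found, the GC box, the core bound by TEAD factors and the TATA box. For *Sulf2* the table lists 2 starts, of which 1 is shown.
Gpc4, chrX:52164874-52165173, minus strand: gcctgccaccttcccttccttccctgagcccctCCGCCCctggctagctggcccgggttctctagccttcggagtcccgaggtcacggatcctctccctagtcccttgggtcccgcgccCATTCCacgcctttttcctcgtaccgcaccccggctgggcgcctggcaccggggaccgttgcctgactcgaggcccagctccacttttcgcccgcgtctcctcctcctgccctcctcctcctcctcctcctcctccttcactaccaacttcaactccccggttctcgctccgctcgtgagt
Ndst2, chr14:20734513-20734812, minus strand: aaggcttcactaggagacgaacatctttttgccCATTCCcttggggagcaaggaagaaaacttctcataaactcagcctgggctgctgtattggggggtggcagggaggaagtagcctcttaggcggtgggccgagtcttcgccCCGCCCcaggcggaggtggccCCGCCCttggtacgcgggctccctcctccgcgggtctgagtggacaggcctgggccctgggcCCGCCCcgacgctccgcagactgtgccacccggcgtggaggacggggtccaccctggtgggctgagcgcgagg
Sulf2, chr2:166155634-166155933, minus strand: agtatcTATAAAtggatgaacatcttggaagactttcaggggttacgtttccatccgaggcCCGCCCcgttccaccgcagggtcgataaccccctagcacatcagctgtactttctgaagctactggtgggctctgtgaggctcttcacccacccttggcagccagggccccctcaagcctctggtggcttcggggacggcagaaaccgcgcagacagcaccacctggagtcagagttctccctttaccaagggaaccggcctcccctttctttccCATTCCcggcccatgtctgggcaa
Hyal2, chr9:107568913-107569212, plus strand: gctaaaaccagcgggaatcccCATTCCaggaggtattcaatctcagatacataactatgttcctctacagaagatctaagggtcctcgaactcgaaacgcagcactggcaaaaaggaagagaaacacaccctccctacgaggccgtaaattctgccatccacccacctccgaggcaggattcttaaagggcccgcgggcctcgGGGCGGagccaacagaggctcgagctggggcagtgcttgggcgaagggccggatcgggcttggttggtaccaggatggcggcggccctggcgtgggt
Cd44, chr2:102901616-102901915, minus strand: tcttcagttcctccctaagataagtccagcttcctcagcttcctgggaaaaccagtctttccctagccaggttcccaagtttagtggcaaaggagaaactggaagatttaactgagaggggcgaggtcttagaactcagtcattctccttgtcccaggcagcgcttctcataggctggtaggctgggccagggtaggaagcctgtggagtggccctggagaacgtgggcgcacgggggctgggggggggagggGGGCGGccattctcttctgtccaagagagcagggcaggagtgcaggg

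GC content of these promoters was 58% to 66.7%, where the median over 32851 RefSeq promoters was 52.7%. The GC box, searched as GGGCGG, was present in 5 of 5 and in 12 of the 17 other matched members, against 38.2% of 27025 genes with a promoter. A gene counted when any of its listed promoters held the motif. The TEAD core, searched as CATTCC, was present for *Gpc4*, *Ndst2*, *Sulf2* and *Hyal2* but not *Cd44*. It was present in 4 of the 17 others, against 16.6% of all these genes. The TATA box, searched as TATAAA, was found in *Sulf2* alone of the 5 and in 15.7% of all these genes. The E-box, searched as CACGTG, was found in 0 of the 5 windows and in 7.15% of all promoters. The same count of 0 held for the AP-1 motif TGANTCA, found in 7.81% of all promoters. It also held for AGAACA, a part of the glucocorticoid receptor element found in 19.0% of all promoters. The motifs were chosen with the sequences in view, none of them overlapped another in these windows, and a match describes the letters only.

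Levels of different genes were compared as CPM per kilobase of exon. *Podxl*, the sialomucin podocalyxin, had the highest level of the 32 with a mean of 94.0 CPM per kilobase in CONV-R mice and 113 in GF mice. *Hyal2* (48.6 and 68.3) was next in both groups. It was followed in CONV-R mice by *Hs3st3b1* (40.9 and 32.8), *Hpse* (30.9 and 31.3) and *Sdc3* (29.2 and 35.2), whereas in GF mice *Sdc3* was the third. The sinusoidal EC scavenger receptor *Stab2*, which takes up hyaluronan, stood at 854 and 859 CPM per kilobase, and *Hspg2*, the secreted heparan sulfate proteoglycan perlecan, at 113 and 143. At the other end, *Sdc2*, *Gpc6*, *Extl1*, *Hs3st1*, *Hs6st2* and *Has2* were below 0.4 CPM per kilobase in both groups.

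**Figure D2:**
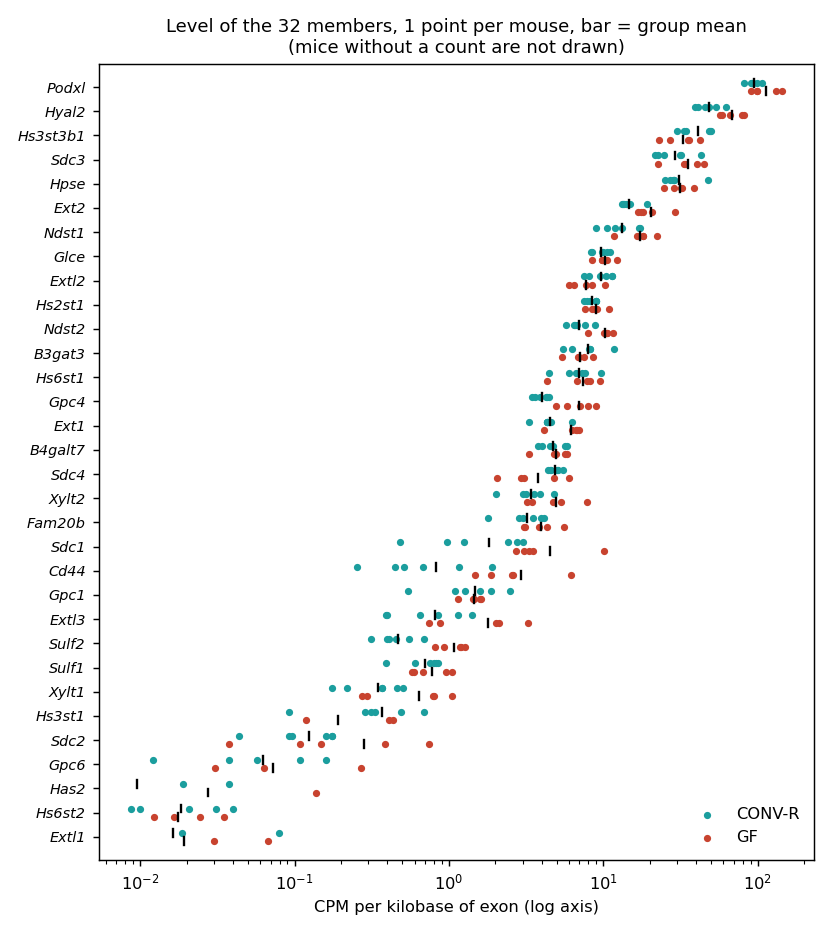
Level of each of the 32 genes in CPM per kilobase of exon (x axis, log scale), 1 point per mouse, with black bars at the group means. The means run from 94.0 (CONV-R) and 113 (GF) for Podxl down to below 0.4 for the 6 genes that had too few counts for a test.

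Of the core proteins, which carry the chains at the membrane, 1 of the 5 that could be tested rose (20%, against 7.48% of all tested genes called in either direction). *Gpc4* is a glypican, a core protein held by a lipid anchor that is known to bind Wnt and fibroblast growth factor ligands (chrX:52053021-52165252, minus strand, GRCm38). Its level was 9.21, 10.8 and 11.9 CPM (lowest, median and highest) in CONV-R mice and 13.2, 23.8, 21.0, 15.5 and 18.9 CPM in GF replicates 1, 2, 4, 5 and 6. Each GF mouse was above every CONV-R mouse, a separation that 3.22% of all tested genes showed in this direction and 2.37% in the other. The Log2FC was 0.79 ± 0.18 (SE), or 1.73-fold, with an adjusted p of 0.0118 by edgeR's quasi-likelihood test. It passed with each of the 11 libraries left out in turn, but not (Log2FC 0.60, adjusted p = 0.106) with CONV-R replicate 3 and GF replicates 2 and 6 left out together. In GF replicates 4 and 5 the Kupffer cell marker sums, 197 and 212 CPM, lay below CONV-R replicate 1 (222 CPM) and above all other CONV-R mice. The sums of their cholangiocyte markers other than *Spp1* lay within the CONV-R range, while *Spp1*, at 13.3 and 13.0 CPM, lay above it. The part of these cell types in the *Gpc4* level was not tested.

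*Gpc1*, the other tested glypican, did not pass the test (7.61 ± 3.46 CPM (SD, n = 6) in CONV-R and 7.45 ± 0.934 CPM (SD, n = 5) in GF mice, Log2FC -0.04 ± 0.30). Its CONV-R values ran from 2.82 to 12.8 CPM, wider than the 5.95 to 8.27 CPM in GF mice, and its exons overlap those of *Ankmy1* on the opposite strand.

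*Sdc3* supplied most of the syndecan RNA in both groups, with 75.6% to 85.2% of the summed level per kilobase in CONV-R mice and, in GF mice, 75.0% to 85.4%. Syndecans are transmembrane core proteins whose ectodomains can be shed. *Sdc3* stood at 129, 168 and 257 CPM (lowest, median and highest) in CONV-R mice and at 271, 203, 201, 136 and 243 CPM in GF replicates 1, 2, 4, 5 and 6. These values overlapped (Log2FC 0.27 ± 0.18, adjusted p = 0.404, edgeR). *Sdc4* was the only syndecan with a lower mean in GF mice, at 9.60 ± 4.09 CPM (SD, n = 5) against 12.4 ± 1.08 CPM (SD, n = 6), with overlapping values (Log2FC -0.37 ± 0.24, adjusted p = 0.380, edgeR).

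*Sdc1*, the main syndecan of epithelia and plasma cells, had the largest Log2FC of the core proteins but missed the threshold (1.32 ± 0.42, adjusted p = 0.0626, edgeR). It was at 1.84, 6.97 and 11.5 CPM (lowest, median and highest) in CONV-R mice and at 38.6, 12.7, 10.4, 11.6 and 13.3 CPM in GF replicates 1, 2, 4, 5 and 6, so that 1 GF library lay far above the rest and GF replicate 4 lay below 2 CONV-R mice. The adjusted p was 0.0429 without CONV-R replicate 1 and 0.00466 without the filter on low counts. Without GF replicate 1 the Log2FC was 0.78 (adjusted p = 0.258). The cholangiocyte markers other than *Spp1* summed to 13.8 CPM in GF replicate 1, and their highest sum, 22.1 CPM, was in GF replicate 6. GF replicate 1 also had the highest hepatocyte and large vessel EC marker sums of all libraries, 68.7 and 1108 CPM. The part of any of these cell types in the *Sdc1* level was not tested.

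The linkage enzymes place the 4 sugars that join a chain to its core protein. Of the 5, 0 passed the adjusted threshold with edgeR, DESeq2 or limma voom, and 2 were higher at an unadjusted p under 0.05 in edgeR. These were the xylosyltransferases, which add the sugar that begins the chain: *Xylt1* at 3.37 ± 1.25 CPM (SD, n = 6) in CONV-R and 6.20 ± 3.30 CPM (SD, n = 5) in GF mice (Log2FC 0.89 ± 0.38, adjusted p = 0.174), and *Xylt2* at 13.5 ± 3.74 and 19.5 ± 7.33 CPM (Log2FC 0.52 ± 0.24, adjusted p = 0.208). The xylose kinase *Fam20b* stood at 28.2 ± 7.53 and 34.9 ± 9.14 CPM, and the galactosyltransferase *B4galt7* at 13.8 ± 2.41 and 14.3 ± 2.88 CPM. *B3gat3*, the glucuronyltransferase that completes the linkage, had the highest level per kilobase of the 5. It was at 14.2, 21.0 and 30.2 CPM (lowest, median and highest) in CONV-R mice and at 22.1, 14.0, 19.4, 18.1 and 17.8 CPM in GF replicates 1, 2, 4, 5 and 6. All GF values lay within or just under the CONV-R range (Log2FC -0.18 ± 0.19, adjusted p = 0.634, edgeR).

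The exostosins polymerise the chain. Of the 4 that could be tested, 0 passed with edgeR or limma voom and 2 with DESeq2, *Ext2* and *Extl3*, while 3 were higher at an unadjusted p under 0.05 in edgeR. *Ext2*, which forms the polymerase with *Ext1*, was at 96.9, 102 and 140 CPM (lowest, median and highest) in CONV-R mice and at 128, 122, 152, 132 and 214 CPM in GF replicates 1, 2, 4, 5 and 6. CONV-R replicate 1 was the only CONV-R mouse above the lowest GF mouse, and without it the adjusted p, 0.0625 with all libraries (Log2FC 0.47 ± 0.15, edgeR), was 0.0263. *Ext1* stood at 36.5 ± 7.81 CPM (SD, n = 6) in CONV-R and 49.7 ± 9.39 CPM (SD, n = 5) in GF mice (Log2FC 0.45 ± 0.17, adjusted p = 0.111, edgeR). Its adjusted p was 0.0363 when CONV-R replicate 1 was omitted and 0.0303 when GF replicate 5 was omitted.

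*Extl3*, which is known to add the residue that commits the linkage to heparan sulfate, was at 2.39 to 8.61 CPM in CONV-R mice and at 4.50 to 19.6 CPM in GF mice (Log2FC 1.16 ± 0.40, adjusted p = 0.0873, edgeR). GF replicates 4 and 5 lay among the CONV-R values and the other 3 GF mice above them, and the adjusted p was 0.0376 without GF replicate 5. *Extl2*, a transferase that can cap the linkage, pointed the other way, with 33.4 ± 5.63 CPM (SD, n = 6) in CONV-R and 26.8 ± 5.80 CPM (SD, n = 5) in GF mice (Log2FC -0.32 ± 0.17, adjusted p = 0.260, edgeR).

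**Figure D3:**
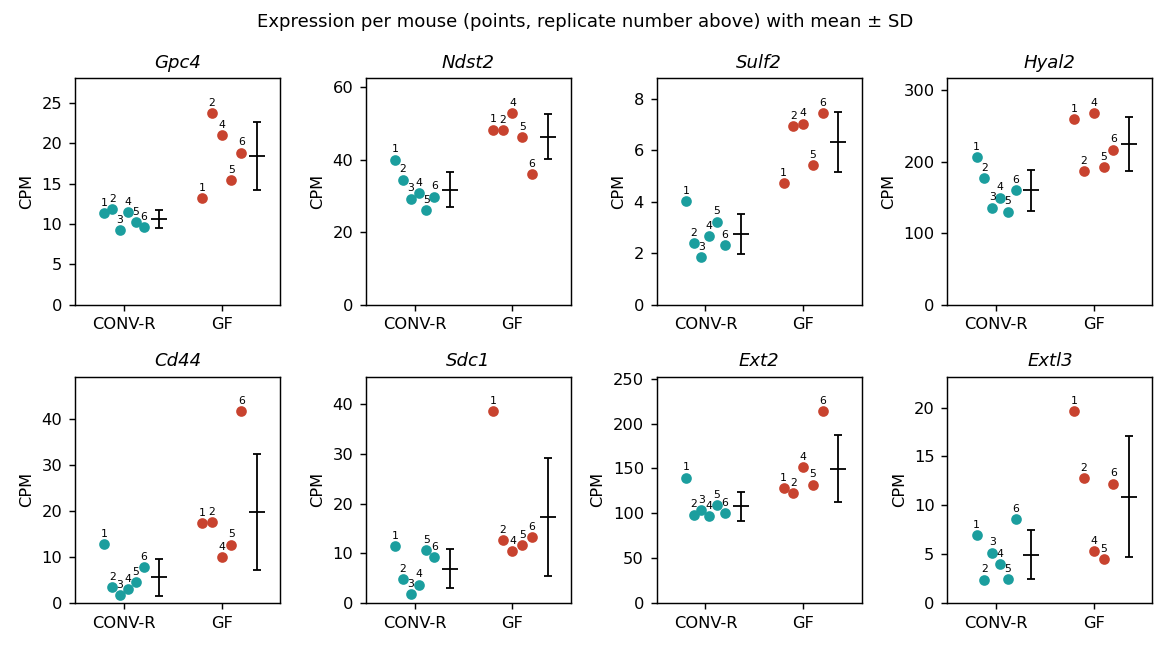
CPM per mouse (y axes, linear from 0) for the 5 genes that rose and for Sdc1, Ext2 and Extl3, with the replicate number above each point and the group mean ± SD beside it. The groups do not overlap for Gpc4 and Sulf2, and 1 GF library lies far above the others for Cd44 (replicate 6, 41.8 CPM) and for Sdc1 (replicate 1, 38.6 CPM).

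The modifying enzymes set the sulfation pattern of the finished chain. Of the 6 that could be tested, 1 rose (16.7%, against 7.48% of all tested genes called in either direction). *Ndst2* and *Ndst1* are the N-deacetylase/N-sulfotransferases that start this modification. *Ndst2* (chr14:20723730-20734562, minus strand, GRCm38) was at 26.1, 30.3 and 39.9 CPM (lowest, median and highest) in CONV-R mice and at 48.3, 48.2, 52.8, 46.3 and 35.9 CPM in GF replicates 1, 2, 4, 5 and 6. GF replicate 6 was the only GF mouse within the CONV-R range. The Log2FC was 0.55 ± 0.14, or 1.46-fold (adjusted p = 0.0237, edgeR's quasi-likelihood test). Its adjusted p was 0.0573, 0.0593 and 0.0557 without CONV-R replicates 4, 5 and 6 and 0.0524, 0.0503 and 0.0588 without GF replicates 1, 2 and 4, with a Log2FC of 0.49 to 0.62 over all 11 such fits. With CONV-R replicate 3 and GF replicates 2 and 6 left out together, the Log2FC was 0.61 (adjusted p = 0.0382).

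*Ndst1*, the more abundant of the pair, was at 109 ± 28.3 CPM (SD, n = 6) in CONV-R and 143 ± 31.3 CPM (SD, n = 5) in GF mice and missed the adjusted threshold (Log2FC 0.40 ± 0.18, adjusted p = 0.193, edgeR). The level of *Ndst2* over that of *Ndst1*, per kilobase, ranged from 0.447 to 0.716 among CONV-R mice and, with overlap, from 0.438 to 0.865 among GF mice.

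The epimerase *Glce* stood at 66.2 ± 7.44 CPM (SD, n = 6) in CONV-R and 69.7 ± 9.73 CPM (SD, n = 5) in GF mice. The 2-O-sulfotransferase *Hs2st1* stood at 69.0 ± 5.23 and 73.6 ± 9.72 CPM, and the 6-O-sulfotransferase *Hs6st1* at 38.5 ± 9.67 and 40.6 ± 10.9 CPM. Their Log2FC were 0.07 ± 0.12, 0.09 ± 0.11 and 0.08 ± 0.20, all smaller than their standard errors. *Hs3st3b1*, a 3-O-sulfotransferase and the most abundant modifying enzyme per kilobase, was at 148, 203 and 247 CPM (lowest, median and highest) in CONV-R mice and at 175, 133, 177, 113 and 208 CPM in GF replicates 1, 2, 4, 5 and 6. GF replicates 2 and 5 lay below every CONV-R mouse and the other 3 within the CONV-R range (Log2FC -0.32 ± 0.17, adjusted p = 0.284, edgeR).

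Of the 3 genes whose products act on finished chains outside the cell, 1 rose (33.3%, against 7.48% of all tested genes called in either direction). *Sulf2* removes 6-O-sulfate groups and can thereby release ligands from the chain (chr2:166073089-166155663, minus strand, GRCm38). It was weakly expressed, at 1.84, 2.52 and 4.03 CPM (lowest, median and highest) in CONV-R mice and at 4.74, 6.95, 7.05, 5.42 and 7.46 CPM in GF replicates 1, 2, 4, 5 and 6, from 205 and 315 counts in all. No GF value overlapped a CONV-R value. The Log2FC was 1.19 ± 0.28, or 2.28-fold (adjusted p = 0.0133, edgeR's quasi-likelihood test). It passed with each library left out in turn, and with CONV-R replicate 3 and GF replicates 2 and 6 left out together it was 0.97 with an adjusted p of 0.0996. A stretch of 154 exon bases of *Sulf2* is shared with *Ncoa3* on the opposite strand, whose own Log2FC was 0.02 (adjusted p = 0.943), and the libraries do not keep strand.

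*Sulf1*, which has the same activity, was at 7.95 ± 1.98 CPM (SD, n = 6) in CONV-R and 8.75 ± 2.46 CPM (SD, n = 5) in GF mice (Log2FC 0.14 ± 0.24, adjusted p = 0.793, edgeR). The level of *Sulf2* over that of *Sulf1*, per kilobase, had a median of 0.630 in CONV-R mice (0.481 to 1.14) and of 1.73 in GF mice (0.767 to 2.20), with overlapping ranges. The heparanase gene *Hpse*, whose product cuts the chain, was the most abundant of the 3 per kilobase. It was at 88.6, 100.2 and 167 CPM (lowest, median and highest) in CONV-R mice and at 87.0, 113, 102, 111 and 137 CPM in GF replicates 1, 2, 4, 5 and 6. The groups overlapped (Log2FC 0.02 ± 0.16, adjusted p = 0.968, edgeR).

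Of the hyaluronan and sialomucin genes, 3 could be tested and 2 rose (66.7%, against 7.48% of all tested genes called in either direction). *Hyal2*, a hyaluronidase of the cell surface (chr9:107567945-107572779, plus strand, GRCm38), was at 130, 155 and 206 CPM (lowest, median and highest) in CONV-R mice and at 260, 187, 268, 192 and 217 CPM in GF replicates 1, 2, 4, 5 and 6. CONV-R replicate 1 was above GF replicates 2 and 5, and the other 5 CONV-R mice were below every GF mouse. The Log2FC was 0.49 ± 0.14, or 1.41-fold (adjusted p = 0.0353, edgeR's quasi-likelihood test). This call depended on most single libraries: the adjusted p was 0.0516, 0.0562, 0.0819, 0.0841 and 0.066 without CONV-R replicates 2, 3, 4, 5 and 6, and 0.0897, 0.0908 and 0.0655 without GF replicates 1, 4 and 6. The Log2FC was 0.42 to 0.58 over the 11 such fits. With the 3 libraries that stood apart left out it was 0.55 (adjusted p = 0.0639), and on the deposited normalized values 0.43 (adjusted p = 0.0764).

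*Cd44* had the largest Log2FC of the 26, 1.81 ± 0.43, or 3.51-fold (adjusted p = 0.0164, edgeR's quasi-likelihood test). It encodes the hyaluronan receptor of leukocytes and many other cells (chr2:102811141-102901665, minus strand, GRCm38). It was at 1.72, 4.04 and 12.8 CPM (lowest, median and highest) in CONV-R mice and at 17.4, 17.7, 9.998, 12.7 and 41.8 CPM in GF replicates 1, 2, 4, 5 and 6. GF replicate 6 was far above the others, and CONV-R replicate 1 was above GF replicates 4 and 5. Without GF replicate 6 the Log2FC was 1.36 with an adjusted p of 0.0687, and with CONV-R replicate 3 and GF replicates 2 and 6 left out together it was 1.08 with an adjusted p of 0.151.

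*Cd44* moved with the Kupffer cell markers from library to library. The marker sum was 931 CPM in GF replicate 6, where *Cd44* was highest, and 86.0 to 87.5 CPM in CONV-R replicates 2, 3 and 4, where *Cd44* was lowest. At marker sums of 196 and 222 CPM, CONV-R replicates 6 and 1 had 7.84 and 12.8 CPM of *Cd44*, and at 197 and 212 CPM, GF replicates 4 and 5 had 9.998 and 12.7 CPM. *Cd44* amounted to 1.96% to 5.76% of the marker sum in CONV-R mice (median 3.85%) and to 4.49% to 6.04% of it in GF mice (median 5.08%). CONV-R replicate 1 was the only CONV-R mouse within the GF range, and the other 5, at 4.02% or less, were below every GF mouse. How much of the *Cd44* RNA came from Kupffer cells was not tested. In GF replicates 4 and 5, *Sulf2* and *Ndst2* were above every CONV-R mouse. The Kupffer cell sums of these libraries lay below that of CONV-R replicate 1 and above those of all other CONV-R mice. Their cholangiocyte sums without *Spp1* lay within the CONV-R range, while *Spp1*, at 13.3 and 13.0 CPM, lay above it. The part of either cell type in the *Sulf2* and *Ndst2* levels was not tested. For *Hyal2*, GF replicate 4 was above every CONV-R mouse and GF replicate 5 was below CONV-R replicate 1.

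**Figure D4:**
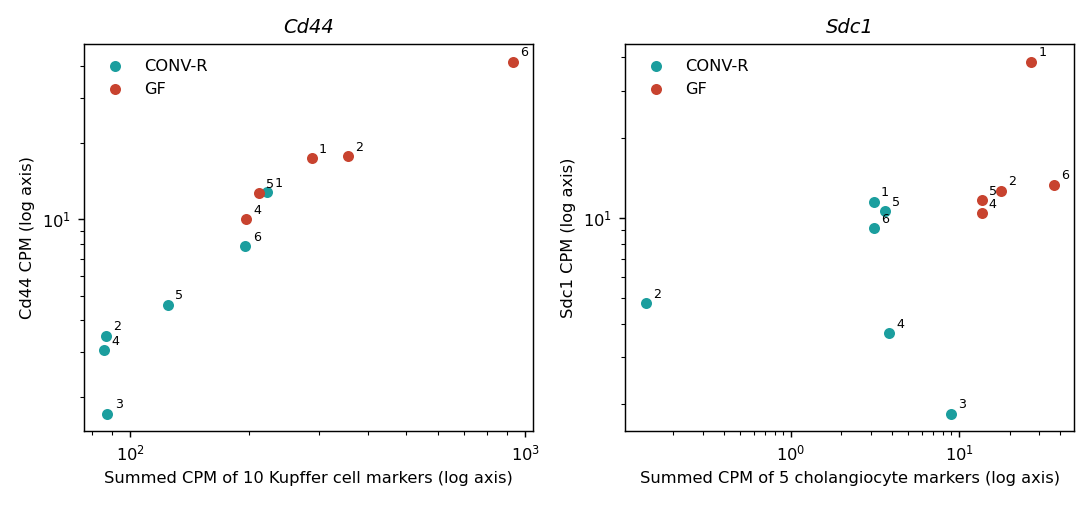
Left, Cd44 CPM against the summed CPM of 10 Kupffer cell markers; right, Sdc1 CPM against the summed CPM of 5 cholangiocyte markers, 1 point per mouse with its replicate number, all axes logarithmic. For Cd44, CONV-R replicates 1 and 6 and GF replicates 4 and 5 lie together, and GF replicate 6 is highest on both axes; for Sdc1, GF replicate 1 is highest on the y axis and GF replicate 6 on the x axis, and most of the x value of GF replicates 4 and 5 is Spp1 (13.3 and 13.0 CPM).

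*Podxl*, whose negatively charged product covers the luminal membrane, was at 451, 508 and 590 CPM (lowest, median and highest) in CONV-R mice and at 719, 544, 542, 499 and 788 CPM in GF replicates 1, 2, 4, 5 and 6. GF replicates 1 and 6 were above every CONV-R mouse and the other 3 lay within the CONV-R range (Log2FC 0.26 ± 0.12, adjusted p = 0.220, edgeR).

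A total of 6 of the 32 genes had too few counts for the test: the core proteins *Sdc2* and *Gpc6*, the exostosin-like *Extl1*, the sulfotransferases *Hs3st1* and *Hs6st2*, and the hyaluronan synthase *Has2*. In the 6 CONV-R and 5 GF libraries together, *Sdc2* had 31 and 50 counts, *Gpc6* 31 and 24, *Extl1* 6 and 5, *Hs3st1* 59 and 26, *Hs6st2* 11 and 7, and *Has2* 3 and 6. GF replicate 2 alone held 27 of the *Sdc2* counts, 18 of the *Gpc6* counts and all 6 of the *Has2* counts in GF mice. Summed over the 6 genes, that library stood at 6.28 CPM, where the others lay between 0.397 and 2.25 CPM. No fold change is given for these genes. Of the 32 genes, *Sdc3*, *B4galt7*, *Fam20b*, *Hs6st1* and *Has2* also share exon bases with a gene on the opposite strand, and *Glce* with a microRNA gene on its own strand, so part of their counts could belong to either.

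Of 35 further heparan sulfate genes, the linkage galactosyltransferase *B3galt6* was not analysed here. Of the other 34, 20 could be tested, 0 rose and 1 (5%, against 7.48% of all tested genes) fell with edgeR, DESeq2 and limma voom alike; at an unadjusted p under 0.05 in edgeR, 3 were higher and 2 lower, and the median Log2FC was 0.09. The gene that fell was *Slc35b3*, a Golgi transporter of the sulfate donor, at 129 ± 52.0 CPM (SD, n = 6) in CONV-R and 74.5 ± 10.5 CPM (SD, n = 5) in GF mice (Log2FC -0.79 ± 0.21, adjusted p = 0.0267, edgeR). Its adjusted p was 0.0582 without CONV-R replicate 4, 0.0544, 0.0573, 0.0574 and 0.0729 without GF replicates 1, 2, 4 and 6, and 0.0919 on the deposited normalized values. With CONV-R replicate 3 and GF replicates 2 and 6 left out together, the Log2FC was -0.49 (adjusted p = 0.119). Leaving out CONV-R replicate 3 alone changed its Log2FC to -0.55 (adjusted p = 0.0222). The secreted core proteins *Hspg2* (Log2FC 0.34 ± 0.19, adjusted p = 0.304) and *Agrn* (0.10 ± 0.13, adjusted p = 0.708) did not pass the test, and *Col18a1* had 30 and 60 counts in CONV-R and GF mice, too few to test.

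Of 32 chondroitin and hyaluronan genes in the table, 25 could be tested, 2 rose (8%, against 7.48% of all tested genes called in either direction) and 0 fell in edgeR, as in DESeq2 and limma voom, with 5 higher and 0 lower at an unadjusted p under 0.05 in edgeR. *Tmem2*, a hyaluronidase of the cell surface like *Hyal2*, was at 1227 ± 131 CPM (SD, n = 6) in CONV-R and 2039 ± 252 CPM (SD, n = 5) in GF mice, without overlap (Log2FC 0.73 ± 0.11, adjusted p = 0.000532, edgeR). *Csgalnact1*, which adds the residue that commits the linkage to chondroitin sulfate, was at 70.9 ± 4.38 and 102 ± 8.55 CPM, also without overlap (Log2FC 0.52 ± 0.10, adjusted p = 0.0047, edgeR). Both passed in every leave-one-out fit and with the 3 libraries that stood apart left out. The hyaluronan receptors of sinusoidal ECs did not pass: *Stab2* had a Log2FC of 0.01 ± 0.11 (adjusted p = 0.979) and *Lyve1* of 0.63 ± 0.22 (adjusted p = 0.0932, edgeR).

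Of 5 further sialomucin genes, 4 could be tested and 2 rose with edgeR (50%, against 7.48% of all tested genes called in either direction). DESeq2 and limma voom each called 1. *Cd34*, a ligand of selectins when suitably glycosylated, was at 12.6 ± 3.32 CPM (SD, n = 6) in CONV-R and 29.2 ± 7.24 CPM (SD, n = 5) in GF mice without overlap (Log2FC 1.20 ± 0.21, adjusted p = 0.00183, edgeR). *Muc1*, an epithelial mucin, was at 0 to 1.24 CPM in CONV-R mice and 0 to 14.8 CPM in GF mice (Log2FC 3.12 ± 0.92, adjusted p = 0.0473, edgeR). Its adjusted p was 0.105 with DESeq2, 0.401 with limma voom, 0.0942 with robust dispersion and 0.253 on the deposited values. In edgeR it was 0.00085 without the filter on low counts, 0.0272 with replicate number as a block and 0.0469 with DESeq2 size factors. With CONV-R replicate 3 and GF replicates 2 and 6 left out together it was 0.22. With single libraries left out, it passed without GF replicate 4 (0.0115) or GF replicate 5 (0.0225), and without each of the other 9 libraries the adjusted p was 0.0575 to 0.147. The cholangiocyte markers other than *Spp1* were above the CONV-R range in 3 of the 5 GF mice, and the part of cholangiocyte RNA in the *Muc1* level was not tested. Of 7 genes for sheddases and their regulators, which can release syndecan ectodomains, 4 could be tested and 1 rose, *Thbs1*, from 2.12 ± 1.35 CPM (SD, n = 6) to 15.7 ± 9.37 CPM (SD, n = 5), with overlapping values (Log2FC 2.88 ± 0.54, adjusted p = 0.00329, edgeR; 0.052 with limma voom). *Adam17*, a sheddase, had a Log2FC of -0.02 ± 0.11 (adjusted p = 0.935, edgeR).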

How the data were processed

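RNA of sorted liver ECs from 6 CONV-R and 5 GF mice was sequenced, with groups and replicate numbers taken from the sample labels. The authors mapped trimmed reads to mm10 with STAR and counted them per gene, and the deposited counts are not normalized. The authors also deposited normalized values on a log2 scale, in which low counts are pulled together. The annotation release and strand setting are not given in the sources used here. The replicates are separate mice, and the paper states that a further GF sample was removed because far fewer of its reads mapped.

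Counts were analysed with edgeR 4.0.16 in R 4.3.3 (filterByExpr, TMM, quasi-likelihood test, Benjamini-Hochberg adjustment over 12905 genes, threshold 0.05, no covariate). Exon lengths and positions came from GENCODE M21 on GRCm38. Depth, 7242717 to 16164588 counts per library, limits weakly expressed genes. Alternatives were DESeq2 1.42.0 and its size factors, limma 3.58.1 voom, robust dispersion, no filter, a minimum of 10 counts per library, thinning to the lowest library total, limma on the deposited log2 values, a replicate block, each library left out, and, chosen after seeing the data, 3 libraries left out together. All 32 members are named; those that passed the test, did not overlap or had the highest level per kilobase in their role are given by mouse, with the lowest, median and highest value for CONV-R. Of other lists, genes that passed are named, plus *Hspg2*, *Agrn*, *Col18a1*, *Stab2*, *Lyve1* and *Adam17*; *Dusp1*, *Slc35b3* and the values of *Sdc1*, *Extl3* and untested genes by mouse were added after their values were seen. The members and lists were chosen with earlier results of these data known.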

Additional observations from a re-analysis of the deposited data

Results flagged for a closer look

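A total of 52 groups of 5 or 6 mice were examined for a single library far from the rest, with Dixon's test at the 95% level, for the 26 tested genes, and 5 were found. Chance alone gives about 1 in 20 groups.

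In GF mice, *Sdc1* was 38.6 CPM in replicate 1, where the nearest value was 13.3 CPM. *Cd44* was 41.8 CPM in GF replicate 6, where the nearest value was 17.7 CPM, and that library also had the highest Kupffer cell marker sum, 931 CPM. *Ext1* was lowest in GF replicate 5 at 33.3 CPM, below the nearest value of 50.7 CPM. In CONV-R mice, *Ext2* was 140 CPM in replicate 1, with the nearest value at 109 CPM. *Hpse* was 167 CPM in CONV-R replicate 3, with the nearest value at 101 CPM, and that library stood apart on the second principal component.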

How the results depend on the processing

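Of the 26 members, 7 passed with DESeq2, without a filter and with the replicate block, 4 on the deposited log2 values and 5 under the other planned settings that kept all libraries, and 0 were called lower in any of these. With CONV-R replicate 3, GF replicate 2 and GF replicate 6 left out together, 1 member, 0 further heparan sulfate genes and 565 of all genes passed. With single libraries left out, 3 to 8 members, 0 to 3 further heparan sulfate genes and 622 to 1260 of all genes passed, against 965 with every library, 625 without CONV-R replicate 4 and 622 without GF replicate 6. DESeq2 called 1527 of all genes, and no further heparan sulfate gene (0) passed on the deposited values. The Log2FC of *Gpc1* was 0.039 with voom and 0.084 on the deposited values, and that of *Hpse* was -0.0013 without a filter. Under the replicate block it was -0.021 for *B4galt7*, -0.045 for *Hs6st1* and -0.014 for *Sulf1*, and *Hs6st1* was at -0.030 with the 3 libraries left out. With single libraries left out, the Log2FC ran from -0.20 to 0.17 for *Gpc1*, -0.018 to 0.16 for *B4galt7*, -0.0048 to 0.13 for *Glce*, -0.037 to 0.22 for *Hs6st1*, -0.0062 to 0.22 for *Sulf1* and -0.072 to 0.18 for *Hpse*. The cause of these changes was not tested. The replicate block left out CONV-R replicate 3, which has no GF partner, and called 7 members, *Sdc1* and *Extl3* beside the 5, as did the fit without a filter; without the block the same libraries gave 4. The correlations of same-numbered libraries were -0.014 to 0.20. Libraries with different numbers were not compared in this way, so whether the numbers pair the mice was not tested. The 6 members with at most 59 counts in a group had too few counts for the test.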
